A study of Mus musculus with 16 samples.

Results

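The 9 genes described here, which cells switch on soon after a stimulus, were followed in the brains of aged mice given the peptide adropin(34-76) or its diluent. They were picked by gene symbol and are the immediate early response genes Ier2, Ier5 and Ier5l, the B cell translocation genes Btg1 and Btg2, the matricellular genes Ccn1 and Ccn2, the kinase gene Sik1 and the small MAF gene Maff. All 9 were found among the 40481 distinct genes of the count table, and all 9 were among the 14949 genes with enough counts to be tested. RNA was sequenced from 16 male mice, labelled C57BL and named C57BL/6J by the study, bought at 18 months of age, with no genetic change described for any of them. Of 15 mice treated per group, 8 given adropin(34-76) at 90 nmol/kg/d by a daily intraperitoneal injection and 8 given only the saline diluent with albumin were sequenced. Every mouse went through behavioral testing while injections continued, then a fast of 6 h before brain tissue was frozen. Each mouse is named by the numbers of its label, such as 8_3, and what those numbers stand for is not given.

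Early response genes are read from factors already present in the cell, such as CREB and serum response factor, so their RNA rises before new protein is made and, for most of them, soon falls again. In neurons they follow synaptic activity and calcium or cyclic AMP signals, and in vessels and glia they follow growth factors, stretch and stress. The genes described here lie mostly downstream of or beside the transcription factors FOS, JUN and EGR, and act on RNA turnover, the cell surface and CREB signaling.

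Across the brain samples the direction was mostly down. In adropin-treated mice 8 of the 9 genes had a lower fitted level than in saline-treated mice, against 50.8% of all genes tested, and Ccn2 was the exception. Among them 6 genes, Ier2, Ier5l, Btg1, Btg2, Ccn1 and Sik1, were lower at an unadjusted p below 0.05 in edgeR's quasi-likelihood test, a call that 2.13% of all genes tested met in that direction. Btg2, Ccn1 and Sik1 were also lower by more than 1.5-fold, the cut-off of the study, which 0.308% of all genes tested met in that direction. The median log2 fold change of the 9 genes was −0.32, beside −0.0019 over all genes tested. None of the differences passed correction for the number of genes. The adjusted p from edgeR with Benjamini-Hochberg adjustment was between 0.874 and 0.883 for the 9 genes, 0% of all genes tested had one below 0.05, and 596 genes had an unadjusted p below 0.05. With the first label number, whose meaning is not given, as a block in edgeR, 1 of the 9 genes (Ier5l) had an unadjusted p below 0.05 and 0 met both parts of the cut-off. The log2 fold changes under that block were −0.71 for Ccn1, −0.59 for Btg2, −0.45 for Sik1, −0.42 for Ier2, −0.39 for Ier5l and −0.17 for Btg1. The groups share that number only in part, since mice with 1, 3 or 4 are all adropin-treated and mice with 6 or 8 all saline-treated. No gene of the 9 had groups free of overlap, a pattern that 0.00669% of all genes tested showed with adropin lower. Values per mouse are given throughout as TMM-normalized CPM, which are read counts scaled to a common library size and corrected for library composition.

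**Figure D1:**
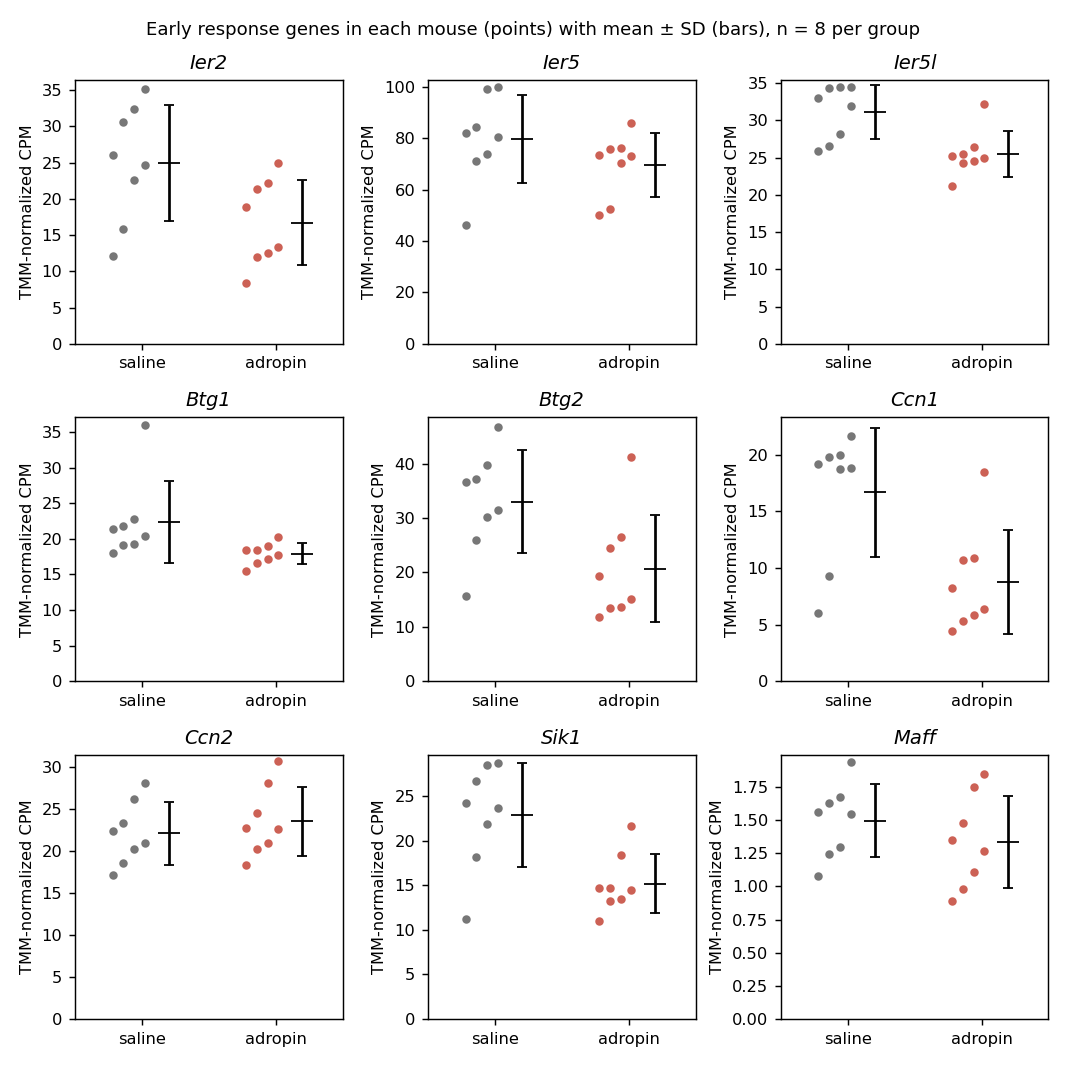
Level of each of the 9 genes in each mouse (points, saline in gray, adropin in red) on a linear axis of TMM-normalized CPM that starts at 0, with the mean and SD of 8 mice per group beside the points. Sik1 sits between 10.98 and 21.6 in adropin-treated mice and between 11.2 and 28.75 in saline-treated mice, and Btg1 has 1 saline-treated mouse at 36.02, far above the rest.

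Library totals ran from 35026503 to 70314050 counts, with medians of 41190462 (adropin) and 41497897.5 (saline), and TMM factors stayed between 0.9524 and 1.0344. Neuron, astrocyte, oligodendrocyte and microglia markers were all present, and no marker gene on the lists used was at 0 in all mice. Markers of the choroid plexus, such as Ttr, did not follow the label of brain evenly: their 7 genes summed to 11.9 to 74.5 CPM in adropin-treated mice and 13.45 to 2470 CPM in saline-treated mice, with mouse 8_3 at the top and the next saline-treated mouse at 329.6 CPM. The 6 cerebellar markers summed to 19.9 to 41.6 CPM with adropin and 18.9 to 427 CPM with saline, again with 8_3 at the top, and the next saline-treated mouse was at 50.4 CPM. The median sums were 18.9 CPM (adropin) and 21.3 CPM (saline) for the choroid plexus and 22.7 and 36.3 CPM for the cerebellum. All 5 tested choroid plexus markers and both tested cerebellar markers were lower in adropin-treated mice at the fold change and p cut-off, but without mouse 8_3, left out after the data were seen, 2 of 5 and 0 of 2 were. All 5 choroid plexus markers were still below 0 without that mouse, with log2 fold changes of −1.34 for Ttr, −0.73 for Prlr, −0.67 for Clic6, −0.61 for Kl and −0.33 for Sostdc1, while the cerebellar markers stood at −0.52 for Calb2 and 0.20 for Car8. Without mouse 8_3, 5 of the 9 early response genes were lower at an unadjusted p below 0.05 and 2 past the cut-off. In that fit 36 of all genes tested were lower past the cut-off, and Sik1 fell just short of it at a log2 fold change of −0.58. In bulk tissue, fewer cells of a type and less RNA per cell cannot be told apart.

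RefSeq promoter sequences on GRCm38.p6 were matched for 6 of the 9 genes, Ier5, Ier5l, Btg1, Btg2, Ccn1 and Maff, while Ier2, Ccn2 and Sik1 were not matched. The 250 bases before the start site are given below 5′ to 3′ for 3 of the genes that were lower in adropin-treated mice and for Maff, whose promoter holds the same full element as Btg2. Capitals mark a cyclic AMP response element (CRE, bound by CREB), whole or as its core, and a TATA box.

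Btg2: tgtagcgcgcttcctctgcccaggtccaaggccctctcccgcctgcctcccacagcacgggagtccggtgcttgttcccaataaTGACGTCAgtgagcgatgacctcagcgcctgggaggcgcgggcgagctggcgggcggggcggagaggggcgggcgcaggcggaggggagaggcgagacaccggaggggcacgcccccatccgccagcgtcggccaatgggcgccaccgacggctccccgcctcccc

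Ccn1: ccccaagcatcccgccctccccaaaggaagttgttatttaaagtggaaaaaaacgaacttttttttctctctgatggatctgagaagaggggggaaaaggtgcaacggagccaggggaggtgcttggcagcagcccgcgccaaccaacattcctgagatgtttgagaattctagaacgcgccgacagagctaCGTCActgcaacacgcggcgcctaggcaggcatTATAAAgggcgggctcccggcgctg

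Btg1: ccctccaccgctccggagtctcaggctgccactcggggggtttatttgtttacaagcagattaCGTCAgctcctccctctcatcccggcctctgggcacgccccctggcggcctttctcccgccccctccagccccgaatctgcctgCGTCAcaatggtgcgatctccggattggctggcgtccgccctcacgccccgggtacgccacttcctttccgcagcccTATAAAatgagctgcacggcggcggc

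Maff: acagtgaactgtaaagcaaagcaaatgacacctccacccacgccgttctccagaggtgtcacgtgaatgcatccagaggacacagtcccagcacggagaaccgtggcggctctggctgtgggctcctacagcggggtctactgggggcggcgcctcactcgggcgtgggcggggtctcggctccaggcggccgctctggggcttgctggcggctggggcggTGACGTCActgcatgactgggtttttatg

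The Btg2 stretch is chr1:134079156-134079405 on the minus strand, and its full CRE, TGACGTCA, lies 166 to 159 bases before the start. The Ccn1 stretch is chr3:145649986-145650235 on the minus strand, with the CRE core TGACG read on the opposite strand 58 to 54 bases before the start and a TATA box, TATAAA, at 25 to 20. Ccn1 also holds the letters GGAATG of a TEAD site on the opposite strand, 103 to 98 bases before the start, which is the site read by the YAP partner proteins. Btg1, at chr10:96616751-96617000 on the plus strand, holds 2 copies of the CRE core on the opposite strand, at 187 to 183 and 103 to 99 bases, and a TATA box at 26 to 21. The Maff stretch precedes the second of its 3 start sites, at chr15:79347270-79347519 on the plus strand, with the full CRE at 29 to 22 bases. Both strands were searched, and the full CRE contains the core. Over 32536 promoter windows of the same length, 1.56% held the full CRE, 17.9% the core, 12.6% the TEAD letters and 12.3% the TATA letters. No CArG box, the letters read by serum response factor, and no AP-1 site, TGANTCA, was found in the matched windows of the 9 genes, against 1.48% and 6.73% of all windows. Ier5 and Ier5l held neither form of CRE and held only GC boxes, GGGCGG, which 33.0% of all windows held. These are matches of letters and say nothing of binding in these brains.

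Ier2 encodes a small nuclear protein that is among the first to appear after growth factors or depolarization, and its gene is a single exon at chr8:84661331-84662852 on the minus strand of GRCm38. Its level in adropin-treated mice was lowest in 3_3 at 8.34 CPM, with a median of 16.2 CPM, and highest in 5_5 at 24.9 CPM. In saline-treated mice it ran from 12.1 CPM in 6_1 through a median of 25.35 CPM to 35.1 CPM in 8_3. Every adropin-treated mouse, 8 of 8, lay under the median of the saline group, 4 saline-treated mice were above every adropin-treated mouse, and the groups overlapped. The means were 16.7 ± 5.91 (SD, n = 8) and 24.9 ± 7.98 CPM (SD, n = 8), a log2 fold change of −0.57 (SE 0.23) or 32.9% lower, just short of the 1.5-fold cut-off. The unadjusted p was 0.0224 in edgeR, and an exact two-sided permutation test over all 12870 divisions of the mice gave p = 0.0488. Leaving out saline-treated mouse 8_3 ended the call, with a log2 fold change of −0.49 and an unadjusted p of 0.0512 in edgeR.

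Ier5 encodes an adaptor that brings the phosphatase PP2A with its B55 subunits to targets such as the heat shock factor HSF1. It is 1 exon at chr1:155096361-155099636 on the minus strand and was the most abundant of the 9 genes, also per length, at 24.3 ± 5.22 CPM per kb of exon (SD, n = 8) in saline-treated mice. Its level ran from 49.95 CPM in 3_3 through a median of 73.2 CPM to 85.8 CPM in 1_3 with adropin, and from 46.3 CPM in 6_1 through 81.2 CPM to 100.1 CPM in 6_2 with saline. The lowest mouse of all was in the saline group, and the groups overlapped nearly throughout. The log2 fold change was −0.19 (SE 0.14, 95% interval −0.46 to 0.07), with an unadjusted p of 0.174 in edgeR and an exact permutation p of 0.266. Leaving out 1 mouse at a time moved it from −0.28 (unadjusted p = 0.0203 in edgeR), without saline-treated mouse 6_1, to −0.13 (unadjusted p = 0.343), without adropin-treated mouse 3_3.

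Ier5l encodes a protein related to IER5 in sequence, and its gene is a single exon at chr2:30471537-30474219 on the minus strand. Adropin-treated mice ran from 21.2 CPM in 2_1 through a median of 25.1 CPM to 32.2 CPM in 1_3, and saline-treated mice from 25.95 CPM in 5_3 through 32.5 CPM to 34.5 CPM in 7_1. The lowest 6 adropin-treated mice lay below the lowest saline-treated mouse, and mouse 1_3 alone kept the adropin group within the upper part of the saline range. The means were 25.5 ± 3.10 and 31.1 ± 3.66 CPM (SD, n = 8 each), which is −0.28 (SE 0.08) as a log2 fold change. It had the second smallest p of the 9 genes, 0.00304 unadjusted in edgeR and 0.00622 by exact permutation, with a modest difference of 17.9%. Its coefficient of variation was 12.1% with adropin and 11.8% with saline, so the spread was small and alike in both groups. Ier3, the remaining gene of the family that was fixed for comparison and an inhibitor of cell death, stood at 10.95 ± 3.04 CPM with adropin and 10.9 ± 2.23 CPM with saline (SD, n = 8 each), with an unadjusted p of 0.975 in edgeR.

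Of 12 genes around IER5, which were PP2A subunits, Hsf1 and heat shock genes under HSF1, 4 were lower and 8 higher in adropin-treated mice. None had an unadjusted p below 0.05 in edgeR, and their median log2 fold change was 0.03. Hspb1, a small heat shock protein, had the lowest p of these at 0.0695, with 6.53 ± 1.32 CPM under adropin and 8.22 ± 2.60 CPM under saline (SD, n = 8 each).

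Btg1 and Btg2 encode antiproliferative proteins that bind the CCR4-NOT complex and hasten the removal of poly(A) tails from mRNA, and Btg2 is also a target of p53. Btg1 lies at chr10:96617006-96622809 on the plus strand. Its level in adropin-treated mice was tight, from 15.5 CPM in 3_3 through a median of 18.05 CPM to 20.3 CPM in 1_3. In saline-treated mice it ran from 18.0 CPM in 7_1 through 20.9 CPM to 36.02 CPM in 8_3, with the next mouse, 2_3, at 22.8 CPM. In all 8 adropin-treated mice Btg1 was under the saline median, and 5 saline-treated mice were above every adropin-treated mouse. The coefficient of variation was 8.31% under adropin and 25.7% under saline, the latter with mouse 8_3 included. The log2 fold change was −0.32 (SE 0.12), with an unadjusted p of 0.0124 in edgeR and an exact permutation p of 0.00606. Without mouse 8_3 it was −0.19, smaller by more than 1.5 times, and the unadjusted p in edgeR was 0.0117.

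Btg2, at chr1:134075170-134079120 on the minus strand, varied far more. Adropin-treated mice ran from 11.8 CPM in 3_3 through a median of 17.2 CPM to 41.3 CPM in 5_5, and saline-treated mice from 15.6 CPM in 5_4 through 34.1 CPM to 46.7 CPM in 2_3. Mouse 5_5 stood among the high saline-treated mice and 5_4 among the low adropin-treated mice, so the groups overlapped at both ends. The means were 20.7 ± 9.89 and 33.0 ± 9.46 CPM (SD, n = 8 each), 37.0% lower under adropin, with a log2 fold change of −0.67 (SE 0.25). The unadjusted p was 0.0143 in edgeR and the exact permutation p was 0.023.

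The other genes of the BTG and TOB family leaned the same way. All 5 tested genes of the family were lower in adropin-treated mice and 4 had an unadjusted p below 0.05 in edgeR, of which 2 were Btg1 and Btg2, beside 50.8% of all genes tested lower and 2.13% lower at that p. Tob1, which recruits the same deadenylases, was at 40.0 ± 3.60 CPM with saline and 35.3 ± 4.69 CPM with adropin (SD, n = 8 each), or −0.18 (SE 0.08) as a log2 fold change, with an unadjusted p of 0.0356. Tob2 was at 31.0 ± 5.91 CPM with saline and 25.85 ± 3.73 CPM with adropin (SD, n = 8 each), or −0.26 (SE 0.12) as a log2 fold change, with an unadjusted p of 0.0361 in edgeR. Both p lay close to the threshold. With 1 mouse left out at a time, a choice made after the data were seen, Tob1 lost its unadjusted p below 0.05 in 9 of 16 cases and Tob2 in 8 of 16. Their log2 fold changes ran from −0.22 to −0.14 and from −0.32 to −0.20, and without mouse 8_3 they were −0.17 and −0.20. Exons of Tob2 share 289 bases with a gene on the other strand, and whether reads were counted by strand was not given in the sources used here. Btg3 was at −0.18 (SE 0.12, unadjusted p = 0.172 in edgeR) and shares 695 exon bases with Cxadr on the other strand, and Btg4, an oocyte gene, was below the filter. The adjusted p from edgeR was 0.874 for all 5 tested genes. The deadenylase subunits that BTG proteins bind showed no such lean, with 6 of 13 CCR4-NOT and PAN genes lower and 7 higher, a median log2 fold change of 0.01 and none with an unadjusted p below 0.05.

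**Figure D2:**
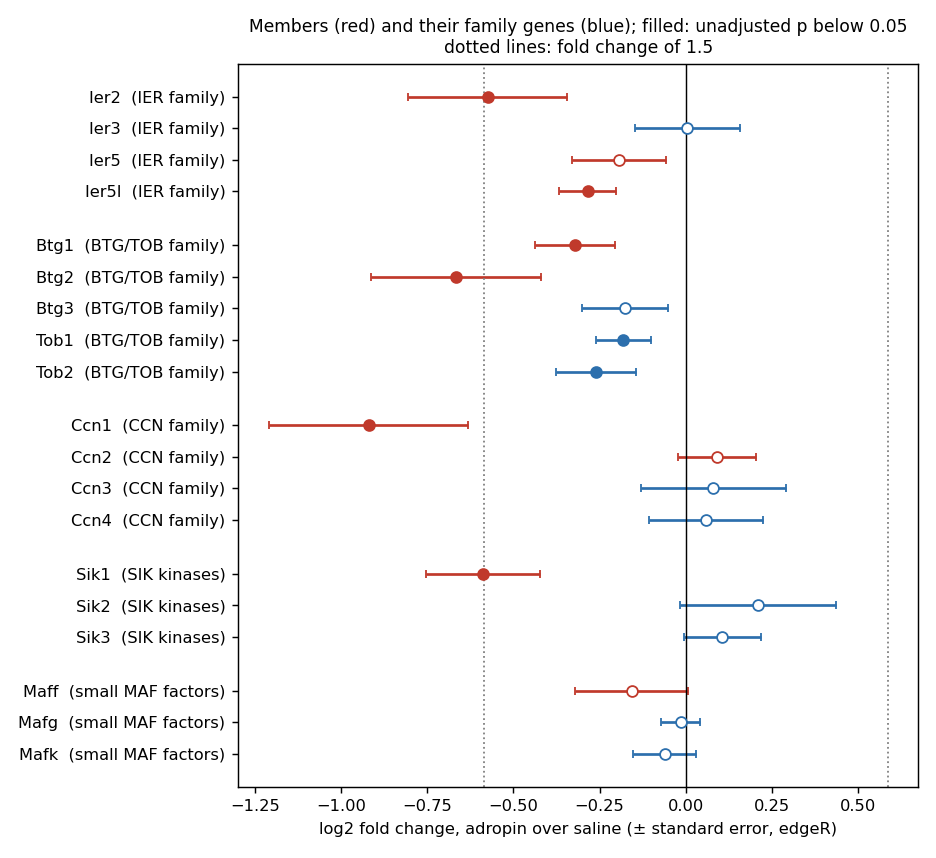
Log2 fold change of adropin over saline with its standard error from edgeR for the 9 genes (red) and the tested genes of their families (blue), with filled points for an unadjusted p below 0.05 and dotted lines at a 1.5-fold change. All 5 BTG and TOB genes lie left of 0, while Ccn1 at −0.92 stands apart from Ccn2 at 0.09 and Sik1 at −0.59 from Sik2 at 0.21.

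Ccn1 and Ccn2 encode secreted proteins of the extracellular matrix that bind integrins, and both are well known targets of the transcriptional coactivator YAP. Ccn1, at chr3:145646976-145649981 on the minus strand, had the largest fold change of the 9 genes. Adropin-treated mice ran from 4.44 CPM in 3_3 through a median of 7.31 CPM to 18.5 CPM in 5_5, where the next mouse, 1_3, was at 10.8 CPM. Saline-treated mice ran from 6.05 CPM in 5_4 through 19.0 CPM to 21.6 CPM in 7_1. The upper 6 saline-treated mice were between 18.8 and 21.6 CPM, above every adropin-treated mouse, and mice 5_4 and 6_1 lay within the adropin range. The means were 8.78 ± 4.59 and 16.7 ± 5.70 CPM (SD, n = 8 each), 47.2% lower under adropin, with a log2 fold change of −0.92 (SE 0.29, 95% interval −1.49 to −0.35). The unadjusted p was 0.00507 in edgeR and the exact permutation p was 0.0162.

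Ccn2, at chr10:24595442-24598683 on the plus strand, did not move with its relative. Adropin-treated mice ran from 18.3 CPM in 1_3 through a median of 22.6 CPM to 30.7 CPM in 3_3, and saline-treated mice from 17.1 CPM in 7_1 through 21.6 CPM to 28.1 CPM in 5_4. The mice at the ends were reversed against Ccn1: 3_3 and 5_4 were the lowest of their groups for Ccn1 and the highest for Ccn2, and 7_1 was the highest for Ccn1 and the lowest for Ccn2. The log2 fold change was 0.09 (SE 0.11, 95% interval −0.13 to 0.31) with an unadjusted p of 0.439 in edgeR. It was 0.03 without adropin-treated mouse 3_3 and 0.15 without saline-treated mouse 5_4. Exons of Ccn2 share 665 bases with the antisense gene Gm15270, and reads of the pair cannot be told apart if strand was not used. Ccn3, a relative that also occurs in neurons, was at 0.08 (SE 0.21) and Ccn4 at 0.06 (SE 0.16) on the log2 fold change scale, while Ccn5 and Ccn6 were below the filter.

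Of 14 regulators and targets of YAP and TEAD, 12 were tested, 6 were lower and 6 higher in adropin-treated mice, and none had an unadjusted p below 0.05 in edgeR. Since Ccn1 and Ccn2 are rich in vessels and meninges, markers of those cells were read beside them. The 8 endothelial markers summed to 205 to 288 CPM with adropin and 216 to 260 CPM with saline, with none past an unadjusted p of 0.05. The 7 fibroblast and meningeal markers summed to 142 to 281 CPM and 109 to 344 CPM, again with none. Of the 8 mural cell markers, which summed to 165 to 214 CPM and 161 to 240 CPM, Rgs5 alone was lower at that level, with a log2 fold change of −0.16 (SE 0.07, unadjusted p = 0.0345 in edgeR). The part of these cells in the Ccn1 difference was not tested.

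Sik1 encodes a salt-inducible kinase that CREB switches on and that then phosphorylates the CREB coactivators CRTC and class IIa histone deacetylases, which holds CREB target genes back. It lies at chr17:31844250-31855804 on the minus strand. Adropin-treated mice ran from 10.98 CPM in 4_3 through a median of 14.6 CPM to 21.6 CPM in 1_3, and saline-treated mice from 11.2 CPM in 5_4 through 23.97 CPM to 28.75 CPM in 6_2. Again 8 of 8 adropin-treated mice lay under the saline median, and 6 saline-treated mice were above every adropin-treated mouse. The means were 15.2 ± 3.32 and 22.9 ± 5.88 CPM (SD, n = 8 each), with a log2 fold change of −0.59 (SE 0.16), just past the 1.5-fold cut-off. Its unadjusted p of 0.00214 in edgeR was the smallest of the 9 genes, and the exact permutation p was 0.0126. Leaving out 1 mouse at a time moved the log2 fold change between −0.69 and −0.53, with unadjusted p of at most 0.0054 in edgeR, and in 11 of the 16 cases it fell short of the 1.5-fold cut-off.

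The related kinase genes and the genes for proteins around SIK1 are given beside it. Sik2 stood at 16.8 ± 4.94 CPM under adropin and 14.5 ± 5.08 CPM under saline, and Sik3 at 159 ± 24.4 and 148 ± 25.25 CPM (SD, n = 8 each), with unadjusted p of 0.369 and 0.349 in edgeR. Of the 10 genes for SIK2, SIK3, the upstream kinase LKB1, CRTC coactivators and class IIa deacetylases, 4 were lower and 6 higher, and none had an unadjusted p below 0.05.

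Maff encodes a small MAF protein, a leucine zipper factor that lacks an activation domain and pairs with CNC and BACH proteins at antioxidant response elements. It lies at chr15:79346621-79359076 on the plus strand and was the scarcest of the 9 genes, with 31 to 118 counts per mouse. Levels ran from 0.888 CPM in 7_4 through a median of 1.30 CPM to 1.85 CPM in 4_3 under adropin, and from 1.08 CPM in 7_1 through 1.55 CPM to 1.94 CPM in 5_4 under saline. Below the lowest saline-treated mouse lay 2 adropin-treated mice, 1 saline-treated mouse lay above every adropin-treated mouse, and the other mice overlapped. The log2 fold change was −0.16 (SE 0.17, 95% interval −0.48 to 0.17) with an unadjusted p of 0.353 in edgeR. Leaving out 1 mouse at a time moved it between −0.23 and −0.09, the latter without adropin-treated mouse 7_4. Of 9 tested relatives and partners 5 were lower and 4 higher, and none had an unadjusted p below 0.05. Mafg, the most abundant small MAF, was at −0.01 (SE 0.06) and Mafk at −0.06 (SE 0.09) on the log2 fold change scale, and both share a short stretch of exon with a neighboring gene (124 and 169 bases).

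Per kb of exon, the order of the levels in saline-treated mice was Ier5 at 24.3 ± 5.22, Ier2 at 16.4 ± 5.24, Btg2 at 12.0 ± 3.45, Ier5l at 11.6 ± 1.36, Ccn1 at 8.26 ± 2.83, Ccn2 at 7.72 ± 1.30, Sik1 at 4.46 ± 1.15, Btg1 at 4.24 ± 1.09 and Maff at 0.577 ± 0.106 CPM per kb (SD, n = 8 each). Btg2 and Ier5l, Ccn1 and Ccn2, and Sik1 and Btg1 were neighbors whose means differed by less than either SD, and Ier2 and Btg2 differed by less than the SD of Ier2. In adropin-treated mice Ccn2, at 8.22 ± 1.45 CPM per kb, stood above Ccn1 at 4.35 ± 2.27 and Btg2 at 7.56 ± 3.61. Ier5l at 9.51 ± 1.16 also stood above Btg2, and Btg1 at 3.39 ± 0.28 above Sik1 at 2.96 ± 0.65 (SD, n = 8 each).

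Whether genes of a family differed in their response was asked by the ratio of their levels within each mouse, compared by an exact two-sided permutation test and adjusted over 6 ratios. The ratio of Sik1 to Sik2 ran from −0.82 to 0.63 on the log2 scale in adropin-treated mice and from 0.37 to 1.55 in saline-treated mice. Sik1 was thus above Sik2 in all 8 saline-treated mice in CPM not scaled for exon length. Per kb of exon, mean Sik1 was above mean Sik2 in both groups. These means were 2.96 ± 0.65 and 1.76 ± 0.52 CPM per kb with adropin, and 4.46 ± 1.15 and 1.52 ± 0.53 with saline (SD, n = 8 each). The difference between groups, which exon length does not alter, was −0.79 (SE 0.22, exact permutation p = 0.00187, adjusted over 6 ratios 0.0112). Exons of Sik2 share 1429 bases with Ppp2r1b on the other strand, so Sik3, which shares none, was put in its place after the data were seen, with a difference of −0.67 (SE 0.17, exact permutation p = 0.00311). The ratio of Ccn1 to Ccn2 was below the saline median in 8 of 8 mice given adropin, with a log2 difference of −1.05 (SE 0.42). Its exact permutation p was 0.0288, and 0.0863 after adjustment over the 6 ratios. Ier2 to Ier5 differed by −0.40 (SE 0.18, exact permutation p = 0.0476, adjusted 0.0951), with 6 of 8 mice given adropin under the median of the saline group. For Btg2 to Btg1 the log2 difference was −0.44 (SE 0.27, exact permutation p = 0.136). It was −0.10 for Ier5l to Ier5 and −0.17 for Maff to Mafg, with exact permutation p of 0.454 and 0.327.

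**Figure D3:**
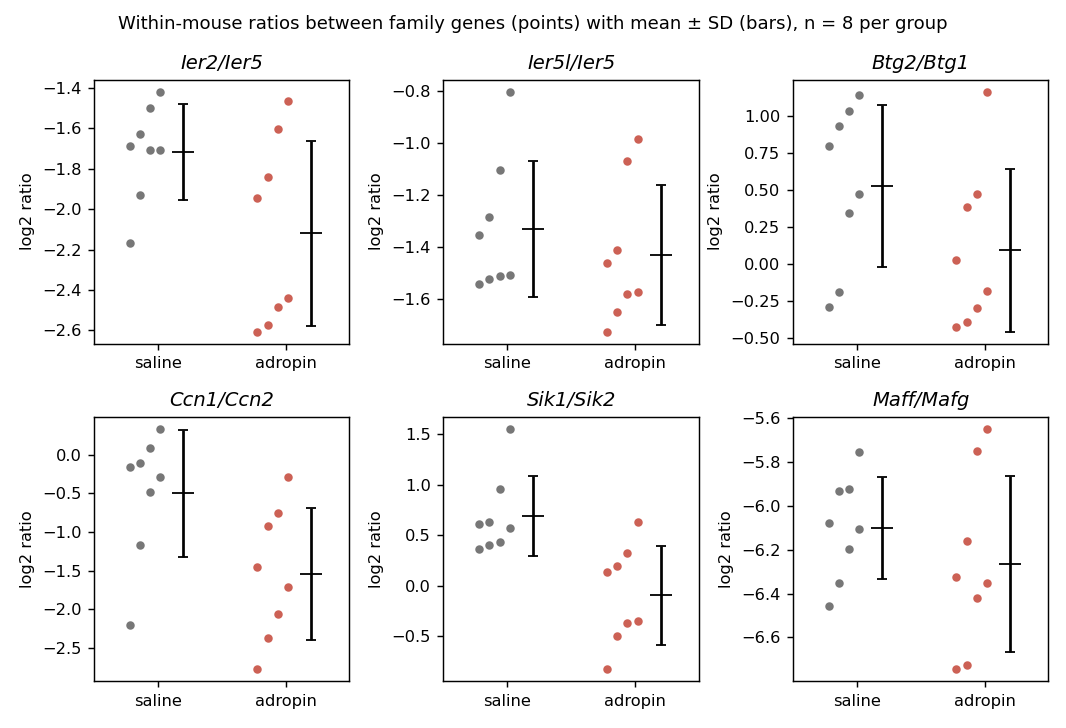
Log2 ratio of 2 family genes within each mouse (points, saline in gray, adropin in red), with the mean and SD of 8 mice per group. The Sik1 to Sik2 ratio, from CPM not scaled for exon length, is above 0 in all 8 saline-treated mice. Its means are 0.69 and −0.10 with saline and adropin. For Ier5l to Ier5 the groups overlap in part, from −1.73 to −0.98 with adropin and from −1.54 to −0.80 with saline.

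Many mice were high or low in most of the 9 genes together, but this did not follow the treatment in every mouse. Against the median of all 16 mice, saline-treated mice 6_2 and 8_3 were high in 9 of 9 genes and 8_1 in 8, whereas 6_1 was high in 3 and 5_4 in 4. Among adropin-treated mice 4_1 was high in 0 of 9, and 2_1, 2_4 and 3_3 in 1 each. Mice 1_3 and 5_5 broke from their adropin-treated group, with 8 and 6 of 9 genes above the median. They also had the largest libraries of the 16, at 70314050 and 57495099 counts, and the lowest TMM factors, 0.9594 and 0.9524. The part of library size in their levels was not tested.

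**Figure D4:**
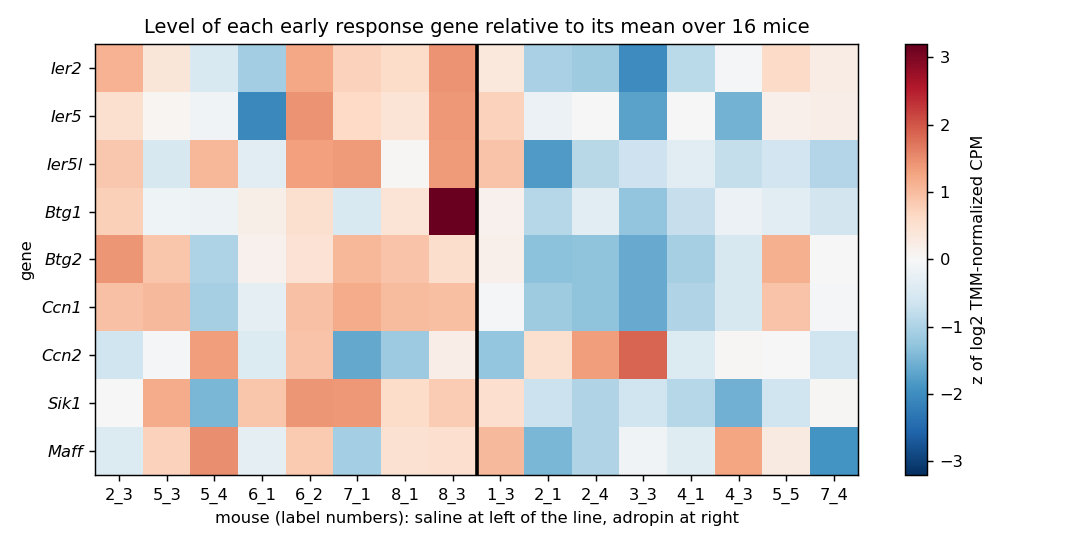
Level of each of the 9 genes in each mouse as the number of SDs from that gene's mean over 16 mice (log2 TMM-normalized CPM, red above and blue below), with saline-treated mice at left of the line. Mice 6_2 and 8_3 are above the median in 9 of 9 genes and adropin-treated mouse 4_1 in 0, and adropin-treated mouse 3_3 is the highest of its group for Ccn2 while it is the lowest for Btg1, Btg2, Ccn1, Ier2 and Ier5.

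How the genes varied together was read with the group means subtracted, so that the treatment difference could not make a correlation. Over 36 pairs, 25 had a positive Pearson r, the median r was 0.233, and 5 passed Benjamini-Hochberg adjustment over the pairs. Btg2 and Ccn1 went together most closely across the 16 mice, with r = 0.948 (permutation p = 1e-05, the smallest that 100000 permutations can give, adjusted 0.00036) and rho = 0.894 (permutation p = 6e-05, adjusted 0.00216). Without mice 5_4 and 5_5, r was 0.897, and within groups it was 0.996 under adropin and 0.902 under saline. Ier2 joined the pair, with r = 0.871 to Ccn1 (permutation p = 8e-05, adjusted 0.00144) and 0.785 to Btg2 (permutation p = 0.00068, adjusted 0.00816). Their rho were 0.791 (permutation p = 0.00091) and 0.759 (permutation p = 0.00206), and r was 0.861 and 0.821 without mice 3_3 and 6_1.

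Ier2 and Ier5 gave r = 0.751 (permutation p = 0.00134, adjusted 0.0121) and rho = 0.794 (permutation p = 0.00068), but r was 0.47 without mice 3_3 and 6_1, so its size rested in part on them. Ccn2 went the other way from Btg2, with r = −0.672 (permutation p = 0.00615, adjusted 0.0443), rho = −0.712 (permutation p = 0.0037, adjusted 0.0266) and r = −0.727 without mice 5_4 and 5_5. Between Ccn1 and Ccn2 r was −0.603 (permutation p = 0.0177, adjusted 0.106) and rho was −0.676 (permutation p = 0.00718, adjusted 0.0369), and r was −0.332 without mice 3_3 and 5_4. Ier2 and Btg1 passed the adjustment by rho, at 0.665 (permutation p = 0.00683, adjusted 0.0369), and not by r, at 0.538 (permutation p = 0.0328, adjusted 0.136, and 0.528 without mice 3_3 and 6_1). Ier5l, Sik1 and Maff were in no pair that passed by either measure.

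**Figure D5:**
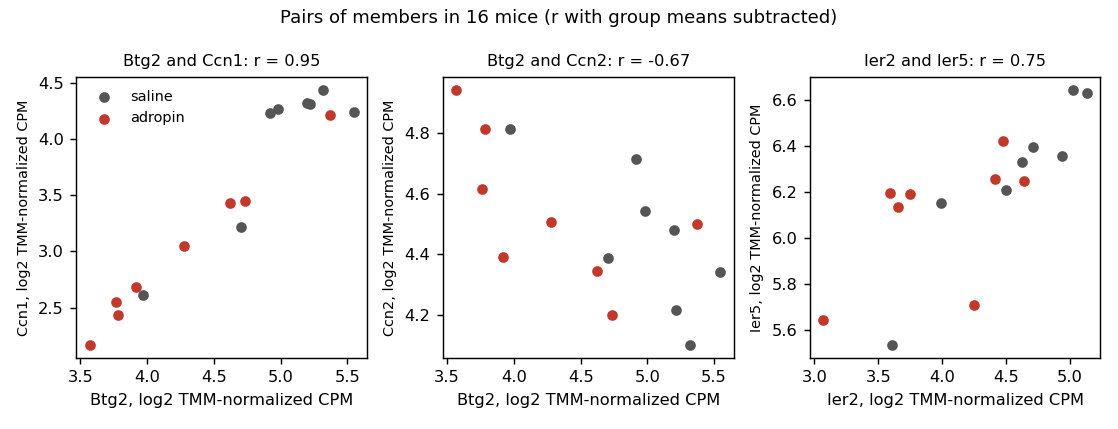
Log2 TMM-normalized CPM of 3 pairs of the genes in 16 mice, 1 point per mouse (saline in gray, adropin in red), with the Pearson r after group means were subtracted. Btg2 and Ccn1 lie on a narrow line with r = 0.95, Btg2 and Ccn2 slope down with r = −0.67, and 2 low mice carry part of the slope of Ier2 and Ier5.

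The other tested genes closest to each of the 9 over the 16 mice, up to 3 each by r with group means subtracted, are given as a description, and all these points share libraries. Ccn1 was closest to the activity genes Fos (r = 0.949), Arc (0.933) and Dusp1 (0.922), and Btg2 to Fos (0.918), Junb (0.879) and Arc (0.865). The log2 fold changes of these genes were −0.997 for Fos, −0.64 for Junb, −0.74 for Arc and −0.60 for Dusp1. Ier2 was closest to Pim3 (0.921), Arl4d (0.914) and Arc (0.893), of which Pim3 and Arl4d had log2 fold changes of −0.25 and −0.44. Sik1 had other neighbors, Tiparp (0.928), Stk40 (0.923) and Hmgxb4 (0.894), with log2 fold changes of −0.43, −0.10 and 0.10. Ier5 was closest to Pou3f2 (0.934), Hecw1 (0.933) and Plcb4 (0.931), with log2 fold changes of 0.15, 0.18 and 0.15, above 0 where Ier5 was below it. Ier5l was closest to Dusp14 (0.843), Phf23 (0.824) and Upf2 (0.813), and among the genes close to Btg1 were Fam107b (0.909) and Zic1 (0.909). The genes nearest to Ccn2 were Zfp933 (0.819), Fancd2 (0.805) and Stk16 (0.802), and to Maff Gm11196 (0.842), Cstf3 (0.813) and Nmt1 (0.81). Log2 fold changes were −0.07, −0.09 and −0.04 for the neighbors of Ier5l in that order, −0.53 and −0.84 for those of Btg1, −0.05, −0.07 and −0.06 for those of Ccn2 and −0.61, 0.04 and 0.04 for those of Maff.

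Markers of the main brain cell types were read beside these genes. All 6 oligodendrocyte markers were lower in adropin-treated mice, with a median log2 fold change of −0.19 and summed levels of 2842 to 8024 CPM (median 4175) with adropin and 2745 to 8023 CPM (median 5356) with saline. All 7 neuron markers were higher, with a median log2 fold change of 0.05, as were 5 of 6 astrocyte markers, and 4 of 5 red cell markers were lower. No gene of these lists had an unadjusted p below 0.05 in edgeR, and the part of these cells in the differences of the 9 genes was not tested. Of 6 microglia markers Cx3cr1 was higher in adropin-treated mice, with a log2 fold change of 0.18 (SE 0.07, unadjusted p = 0.0225). Markers of liver and muscle, which brain should lack, summed to 2.09 to 28.3 CPM and 2.44 to 40.35 CPM, with none past that level. The part of mouse 8_3's choroid plexus and cerebellar RNA in the Ier2 and Btg1 differences was not tested beyond the values without that mouse given above.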

How the data were processed

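The authors aligned paired reads from poly(A)-selected RNA to Ensembl release 76 (GRCm38) with STAR. The authors deposited raw counts per gene from featureCounts, limited to reads with a unique and unambiguous place, and CPM, which the authors made by dividing counts by a total per library and which carry no TMM scaling. The strand setting was not given in the sources used here. Of 40757 deposited entries, 276 repeats were dropped. The filter asked for more than 1 CPM in 7 or more mice, and 355 ribosomal RNA genes were left out. The other 14949 genes entered edgeR's quasi-likelihood test (edgeR 4.0.16, R 4.3.3) with TMM factors and Benjamini-Hochberg adjustment over all of them. Ratios and correlations used log2 TMM-normalized CPM with a prior count of 2, and permutation tests ran in SciPy 1.17.1. Each sample is 1 mouse, and p-values measure the spread between mice. Totals of 35026503 to 70314050 counts limit the precision mainly for Maff.

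The genes and lists were chosen with earlier results of these data known. Other genes were named where they belong to the families of the 9 genes, had an unadjusted p below 0.05 within a list, or were among the 3 closest to one of the 9, where 1 close gene is not reported here. Hspb1 and the marker genes were named for their values. Promoters came from RefSeq (GRCm38.p6) and loci from the GENCODE annotation of GRCm38, the build of the deposited counts. The edgeR step was tested on simulated data for this comparison with 14949 genes, where an adjusted p below 0.05 found 99 of 100 genes changed 2-fold and 81 of 100 changed 1.5-fold, and called 5 of 14749 unchanged genes. The simulated counts took their spread between mice from the trend over all genes at a given count level, not from each gene's own spread. These shares therefore need not hold for genes that vary more between mice than that trend.

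Alternatives were DESeq2 1.42.0, limma-voom and limma-trend (limma 3.58.1) on the deposited CPM plus 1 or 0.1, library size only, DESeq2 size factors, no filter on low counts, a floor of 10 counts in each mouse, the label numbers as blocks, prior counts of 0.5 and 5, and leaving out each mouse in turn.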

Additional observations from a re-analysis of the deposited data

Results flagged for a closer look

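Among 30 groups of 8 mice, made of the 9 genes and 6 ratios in both treatment groups, 2 held a mouse far from the rest by Dixon's test at its 95% limit, where chance gives 1.5. Btg1 in saline-treated mouse 8_3 stood at 36.02 TMM-normalized CPM, with the nearest mouse at 22.8 and a gap of 0.732 of the group's range. Ccn1 in adropin-treated mouse 5_5 stood at 18.5 TMM-normalized CPM, with the nearest mouse at 10.8 and a gap of 0.544 of the range. The same mouse 5_5 was the highest of its group for Btg2, at 41.3, and for Ier2, at 24.9.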

How the results depend on the processing

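The directions of the 9 genes and of the 6 ratios did not turn under the alternatives run. Over all genes, 46 were lower and 17 higher at a fold change over 1.5 and an unadjusted p below 0.05 in edgeR, and these numbers changed to 30 lower under limma-voom, 20 lower and 8 higher under limma-trend on CPM plus 1, and 784 lower and 569 higher without a filter (30210 genes tested). Leaving out 1 mouse gave 34 to 62 genes lower and 10 to 48 higher. For the 9 genes, leaving out 1 mouse left 5 to 7 lower at an unadjusted p below 0.05 in edgeR and 1 to 4 past the cut-off, with 1 past it without adropin-treated mouse 3_3. Ccn1 was past it in 16 of 16 cases, Btg2 in 14, Ier2 in 6 and Sik1 in 5, and Sik1 also fell short at −0.55 under limma-voom and at −0.56 and −0.58 under limma-trend on CPM plus 1 and 0.1. With 1 mouse left out, the ratios ranged from −0.50 to −0.33 for Ier2 to Ier5, −0.59 to −0.35 for Btg2 to Btg1 and −1.29 to −0.87 for Ccn1 to Ccn2, −0.17 to −0.03 for Ier5l to Ier5, −0.89 to −0.66 for Sik1 to Sik2 and −0.25 to −0.10 for Maff to Mafg. At an unadjusted exact p of 0.05, since neither passed adjustment over the 6 ratios, Ier2 to Ier5 was no longer below it without any 1 of 10 mice and Ccn1 to Ccn2 without any 1 of 4, and Btg2 to Btg1 came below it without adropin-treated mouse 5_5 (exact permutation p = 0.0357). The cause was not tested.

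The label numbers were also used as a replicate block. Mice sharing the first number across groups had correlations of −0.272 to 0.217 (5 pairs) and those sharing the second −0.561 to 0.299 (17 pairs), so the numbers were not taken to pair the mice, though what they stand for is not given and a shared origin of mice with 1 number was not tested. With the first number as a block, which the groups share only in part, 1 of the 9 genes, Ier5l, kept an unadjusted p below 0.05 in edgeR, 0 met both parts of the cut-off, and 60 of all genes were lower and 34 higher. Log2 fold changes under it were −0.71 for Ccn1, −0.59 for Btg2, −0.45 for Sik1, −0.42 for Ier2 and −0.17 for Btg1, and Tob1 and Tob2 were at −0.15 with no call. With the second number as a block, 6 of the 9 had an unadjusted p below 0.05 and 3 met the cut-off, now Ier2 (−0.62) with Btg2 and Ccn1 in place of Sik1 (−0.46), and 53 of all genes were lower and 11 higher. Permuting within the first number allows 18 arrangements and no p below 0.0556, so no ratio could be called. The ratios were −0.84 for Sik1 to Sik2, at that smallest exact p, and −0.33 for Ier2 to Ier5 and −0.79 for Ccn1 to Ccn2, both at an exact p of 0.389. Depth limits Maff most, at 31 to 118 counts per mouse.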
